A study of Mus musculus with 13 samples.

Results

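The DNA replication and mitosis genes described here are 42 named genes of the cell cycle, taken as a list of symbols and found in the raw count table through their Ensembl identifiers and GENCODE M21 names. All 42 were found, each under 1 identifier, among the 54838 genes of the table, and all 42 passed the filter on low counts that kept 17795 genes. They fall into 19 G1/S genes, which serve the start of replication, 17 G2/M genes, which serve mitosis, and 6 regulators of G1.

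RNA-Seq was run on sorted Lin- cKit+ BM cells, a fraction of BM that holds stem cells and early progenitors, with 50000 cells per mouse. There were 3 control mice (Mx1-Cre alone), 3 p53mut mice (Mx1-Cre with p53 R172H/+), 3 NrasG12D mice (Mx1-Cre with Nras G12D/+, spelled G21D in 1 label field), and 4 moribund NPmut mice (Mx1-Cre with p53 R172H/+ and Nras G12D/+). Mx1-Cre, an interferon-inducible Cre that also acts outside blood cells, was carried by every mouse, and the mutant alleles are expressed from their own loci once a stop cassette is removed. Control and single mutant mice received 3 injections of 100 µg pI-pC from about 6 weeks of age, whereas NPmut mice received none, so the double genotype cannot be told apart from overt disease or from the absence of pI-pC.

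Cells commit to division in G1, when D cyclins activate CDK4 and CDK6 and the RB proteins release E2F transcription factors. E2F factors then drive cyclin E, the MCM helicase, and the enzymes that make nucleotides and DNA, whereas the MuvB complex with B-MYB and FOXM1 drives cyclin B, CDK1, Polo and Aurora kinases, and the spindle proteins before mitosis. Many BM progenitors are cycling, whereas long-term stem cells are largely quiescent.

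The promoters of most G1/S and G2/M members with a window carried letters known from these programs. RefSeq windows of 250 bases before to 50 bases after a start site (GRCm38.p6) were available for 34 of the 42 members and not for Mcm4, Gins2, Ccne2, Ccna2, Aurkb, Foxm1, Ccnd1, or Ccnd2. Searched on both strands, the E2F letters, which were TTCCCGC, its variants TTCGCGC, then TTGGCGC, and lastly TTGCCGC, stood in the windows of 11 of 16 G1/S genes (68.8%) and 3 of 14 G2/M genes (21.4%), against 13.7% of 17492 protein-coding genes. The letters of the cell cycle genes homology region (CHR), TTTGAA or TTCGAA, stood in 2 of 16 G1/S genes (12.5%) and 11 of 14 G2/M genes (78.6%), against 20.2% of protein-coding genes. CCAAT stood in 11 of 16 G1/S genes and 13 of 14 G2/M genes, against 42.3%. TTCGAA reads the same on both strands, and TTGGCGC and TTCGCGC can overlap, as they do in Mcm6. A match is a description of the letters and not a mapped site. Some RefSeq start sites lay inside the GENCODE gene, by 466 bases for E2f1, 350 for Cdc6, 134 for Pcna, 84 for Ccnb1, and 2408 for Cdk6. Letters missing from such a window may still stand near the GENCODE gene start. Stretches of 6 windows are given 5′ to 3′ on the strand of the gene, from 180 bases before the RefSeq start site to 25 bases after that site or the GENCODE gene start, whichever came first, with matches to any of the 3 letter sets in capitals. Mcm6 (chr1:128359681-128359885, minus strand) and Rrm1 (chr7:102441515-102441719, plus strand) are shown as G1/S genes with E2F letters, Ccnb2 (chr9:70421530-70421734, minus strand), Cdk1 (chr10:69352914-69353092, minus strand), and Cdc20 (chr4:118437328-118437523, minus strand) as G2/M genes with CHR letters, and Ccnb1 (chr13:100786546-100786666, minus strand) because it was the G2/M gene called in NPmut mice and its window held no CHR letters.
Mcm6: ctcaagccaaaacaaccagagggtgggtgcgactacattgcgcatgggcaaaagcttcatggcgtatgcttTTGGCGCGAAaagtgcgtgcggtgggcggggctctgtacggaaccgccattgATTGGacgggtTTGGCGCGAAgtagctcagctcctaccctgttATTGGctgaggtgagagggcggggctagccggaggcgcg
Rrm1: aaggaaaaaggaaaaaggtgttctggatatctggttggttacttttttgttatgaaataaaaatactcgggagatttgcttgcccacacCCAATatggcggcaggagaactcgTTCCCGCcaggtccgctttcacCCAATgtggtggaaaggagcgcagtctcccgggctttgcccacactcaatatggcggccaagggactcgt
Ccnb2: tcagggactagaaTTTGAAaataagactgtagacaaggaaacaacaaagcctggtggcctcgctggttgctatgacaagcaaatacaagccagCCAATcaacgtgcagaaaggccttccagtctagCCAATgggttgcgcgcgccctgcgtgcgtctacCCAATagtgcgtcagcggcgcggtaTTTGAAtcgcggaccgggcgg
Cdk1: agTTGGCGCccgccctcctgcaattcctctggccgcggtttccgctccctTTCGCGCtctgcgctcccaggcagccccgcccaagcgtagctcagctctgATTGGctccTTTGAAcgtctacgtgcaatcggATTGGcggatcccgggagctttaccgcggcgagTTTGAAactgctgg
Cdc20: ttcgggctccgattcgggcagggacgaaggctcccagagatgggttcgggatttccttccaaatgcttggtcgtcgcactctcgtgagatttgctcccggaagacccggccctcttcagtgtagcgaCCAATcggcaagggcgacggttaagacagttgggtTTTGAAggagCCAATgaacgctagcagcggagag
Ccnb1: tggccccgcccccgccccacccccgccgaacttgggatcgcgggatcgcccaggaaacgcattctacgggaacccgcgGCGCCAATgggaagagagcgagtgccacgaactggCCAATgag

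Library totals ranged from 12576174 counts (NPmut mouse 4) to 29124022 counts (NPmut mouse 2), and the least abundant members were still counted well, with at least 139 counts for Ccnb1 and 168 for Ccnd1 in every mouse. Counts of NPmut mouse 2 differed from those of the other NPmut mice by a chi-square of 88.0 to 104 per degree of freedom, against 12.1 to 18.2 within the other groups and 22.4 to 32.8 among the other NPmut mice. This statistic grows with library depth, which was greatest in NPmut mouse 2. The markers of the sort, Kit, Ptprc, Cd34, and Myb, were present in every mouse, and Kit, the marker of the gate, was lower in NPmut mice than in controls (log2 fold change −0.54, adjusted p = 0.0322), without overlap. In NPmut mice 5 of 5 HSC markers and 3 of 3 tested megakaryocyte markers were lower than in controls and 3 of 5 monocyte markers were higher, with a summed monocyte marker level of 600 to 953 CPM against 210 to 233 CPM. Of 8 erythroid markers 2 were lower, Gata1 at −1.80 (adjusted p = 0.0194) and Klf1 at −1.66 (adjusted p = 0.0341), and of 4 mast cell and basophil markers Gata2 was lower at −1.64 (adjusted p = 0.0142) and Mcpt8 higher at 0.78 (adjusted p = 0.0410). Neutrophil and GMP markers changed in 0 of 6 tested cases by edgeR (1 of 6 at an unadjusted p under 0.05), and the summed B lymphoid markers did not exceed 4.48 CPM in any mouse. The part of these shifts in the results below was not tested.

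**Figure D1:**
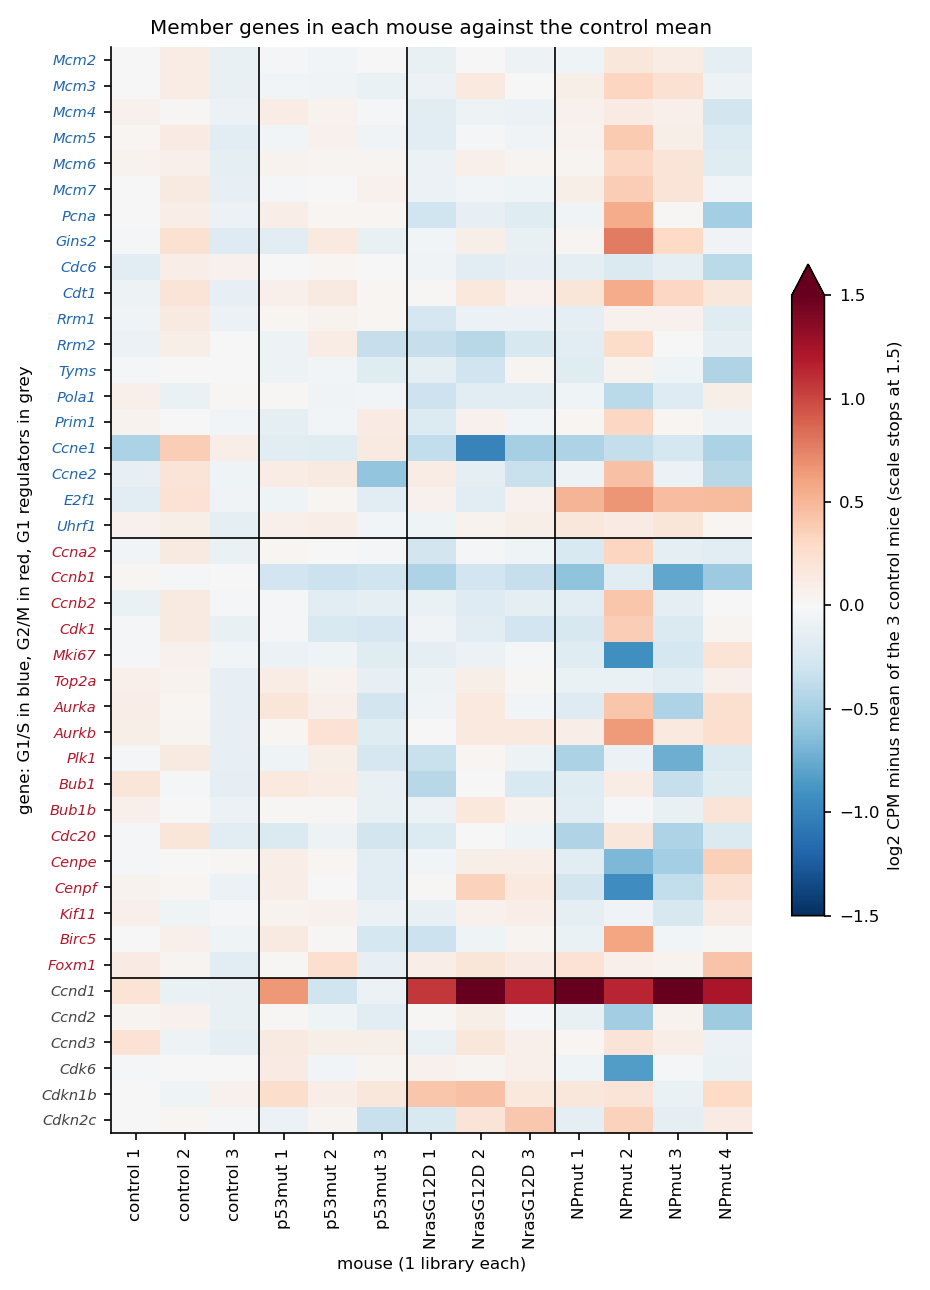
Each row is a member, each column a mouse, and color gives log2 CPM minus the mean of the 3 control mice, with G1/S genes on top, G2/M genes in the middle, and G1 regulators at the bottom. Most cells are pale in every group, E2f1 is raised in 4 of 4 NPmut mice, Ccnd1 is raised in NrasG12D and NPmut mice, and NPmut mouse 2 departs in both directions.

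NPmut mice were compared with control mice to see whether the genes of replication and division differ in leukemic progenitors. Of the 42 members, 3 passed the test at an adjusted p under 0.05 (7.14%), while 10.9% of all genes tested passed it. E2f1 and Ccnd1 were higher and Ccnb1 was lower, where 5.38% of all genes were called higher and 5.54% lower. Ccnd1 was the called member with a change of at least 2-fold, as 6.01% of all genes were. The median log2 fold change over the members was 0.00, against 0.01 over all genes tested. In bulk samples fewer cells of a type and less RNA per cell cannot be told apart.

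The fit bounded the other changes with a spread pooled over the 4 groups. Such intervals may be too narrow for genes that varied more among NPmut mice. For Cenpf the SD of log2 CPM was 0.48 in NPmut mice and 0.07 in controls, and for Mki67 it was 0.47 and 0.05. The 95% interval of the log2 fold change lay wholly within 2-fold in either direction for 41 of 42 members (97.6%) and within 1.5-fold for 34 (81%). Among all genes tested these shares were 56.4% and 32.7%, and among the 8314 genes with a mean level at or above that of the lowest member (14.0 CPM) they were 88.7% and 62.8%. The narrowest interval belonged to Uhrf1, which keeps DNA methylation through replication, at 0.12 (95% interval −0.08 to 0.32), and the widest to Ccnd1. Values of a member in NPmut mice overlapped those of controls for all but 5 members (11.9%), against 22% of all genes without overlap.

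**Figure D2:**
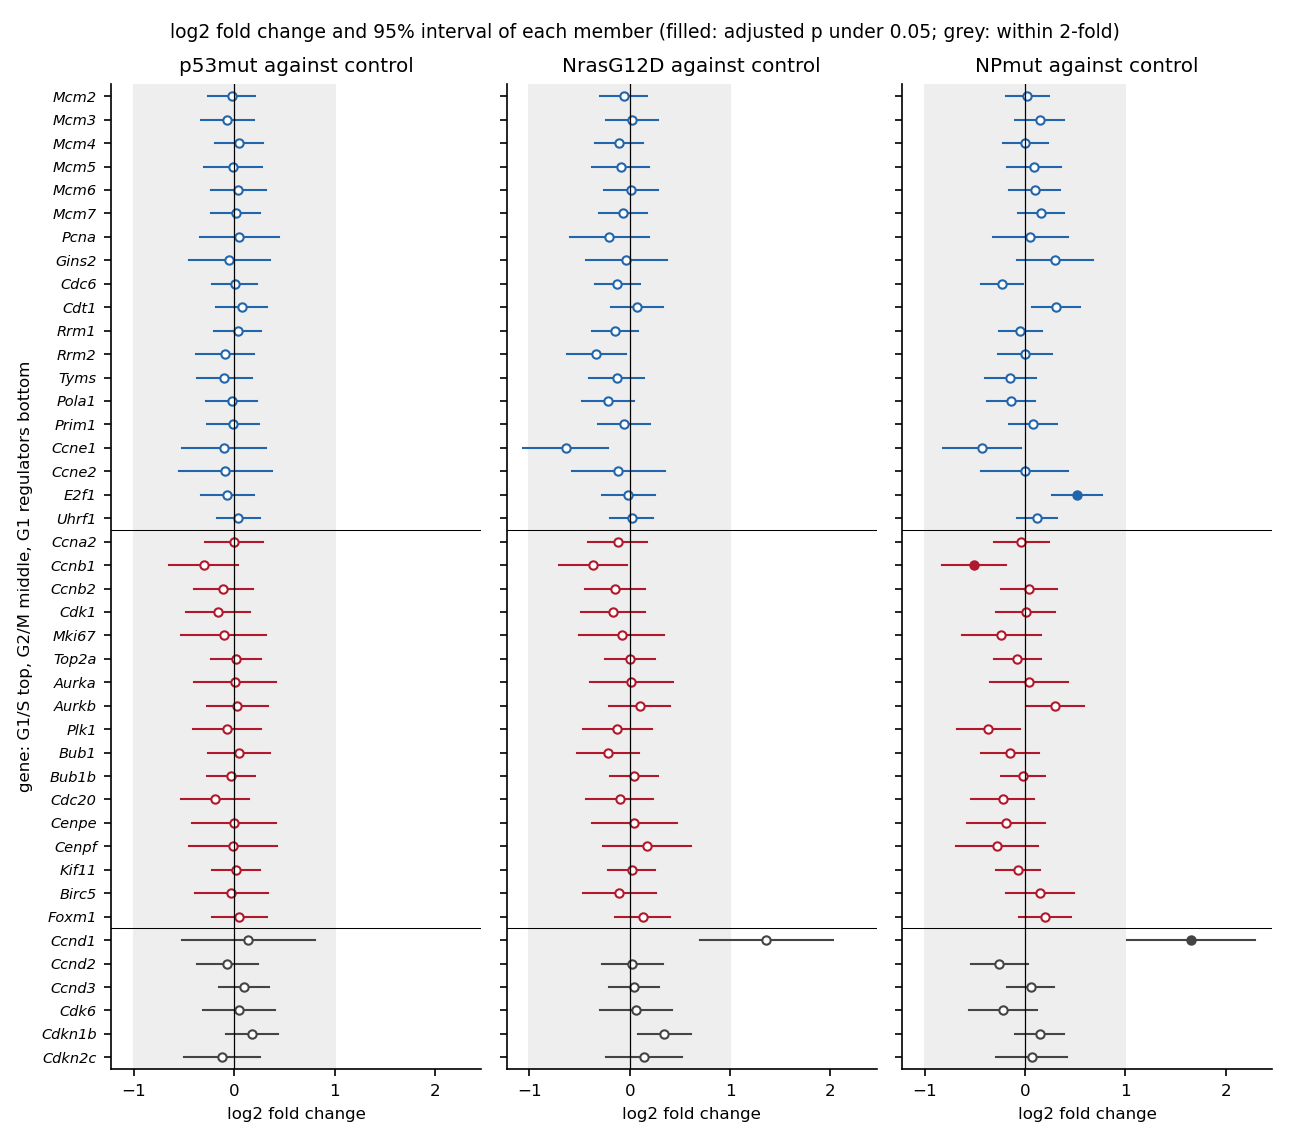
Points give the log2 fold change of each member against the 3 control mice and lines its 95% interval from the quasi-likelihood fit, for p53mut, NrasG12D, and NPmut mice. Filled points passed at an adjusted p under 0.05, and the grey band marks changes within 2-fold, which holds the whole interval of 42, 40, and 41 members.

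E2f1, the E2F factor best known for activating S-phase genes, was the G1/S gene that changed. Its level was 34.0, 44.2, and 36.5 CPM in the 3 control mice, 36.4, 38.9, and 33.8 CPM in p53mut mice, and 39.7, 34.1, and 39.7 CPM in NrasG12D mice. In NPmut mice it was 53.9, 59.9, 52.3, and 52.8 CPM. Every NPmut mouse was above every other mouse, and the other 3 groups overlapped one another. The log2 fold change was 0.52 ± 0.12 (SE) against controls, or 1.43-fold (95% interval 1.21 to 1.70), with an adjusted p of 0.0105. Without control mouse 3 the adjusted p was 0.0587.

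The other 18 G1/S genes did not pass the test. The 6 genes of the MCM2-7 helicase, which unwinds DNA at the fork, had log2 fold changes of 0.00 (Mcm4) to 0.16 (Mcm7), with interval bounds no further than −0.22 and 0.39. Within the NPmut group mouse 2 was highest and mouse 4 lowest in TMM-scaled CPM for 6 of 6 subunits. Mcm6 for example read 597, 722, 664, and 512 CPM against 602, 615, and 532 CPM in controls. The rank of mouse 2 depended on the scaling. In RPKM, which use library totals, mouse 3 was above mouse 2 for Mcm2, Mcm3, Mcm4, and Mcm6 (142 against 138 RPKM for Mcm6). It was below mouse 2 for Mcm5 and Mcm7. The mean deviation of the 6 subunits from controls was 0.04, 0.28, 0.15, and −0.15 in NPmut mice 1 to 4.

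Of the other factors that load or start the fork, Cdt1, which brings MCM to origins, had a log2 fold change of 0.31 (95% interval 0.06 to 0.55, adjusted p = 0.1), and Gins2, a subunit of the active helicase, one of 0.30 (−0.08 to 0.67). Cdc6, the partner of CDT1 in loading, had one of −0.23 (−0.44 to −0.02, adjusted p = 0.151). None of the 3 passed the test. Gins2 shares 2758 exonic bases with Gse1 on the opposite strand, and the sources used here do not say whether strand was used in counting.

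Pcna, the sliding clamp of the polymerases, had a log2 fold change of 0.05 (−0.32 to 0.42), and its 4 NPmut values of 109, 165, 114, and 79.0 CPM spanned the control values of 112, 121, and 105 CPM on both sides. The catalytic and small subunits that prime synthesis, Pola1 and Prim1, had log2 fold changes of −0.14 and 0.08. Rrm1 and Rrm2, the subunits of ribonucleotide reductase, stood at −0.05 and 0.00, and Tyms, which makes thymidylate, at −0.15. The intervals of these 6 genes reached no further than −0.40 and 0.42.

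Cyclin E binds CDK2 at the G1/S boundary. Ccne1 read 31.8, 57.0, and 47.4 CPM in controls, 39.3, 39.0, and 48.3 CPM in p53mut mice, 34.1, 22.0, and 31.2 CPM in NrasG12D mice, and 31.9, 34.4, 36.6, and 31.8 CPM in NPmut mice. Control mouse 1 was as low as the NPmut mice, so the groups overlapped. The log2 fold change was −0.43 (95% interval −0.82 to −0.04, adjusted p = 0.151) in NPmut mice and −0.64 (−1.06 to −0.22, adjusted p = 0.279) in NrasG12D mice, neither past the threshold. Without control mouse 1 the NPmut value was −0.61 and passed (adjusted p = 0.0422), and without control mouse 2 it was −0.23 (adjusted p = 0.514). Ccne2, its paralog, had a log2 fold change of 0.00 in NPmut mice (−0.44 to 0.43).

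Ccnb1, cyclin B1, the activator of CDK1 at mitotic entry, was the G2/M gene that changed. It read 17.6, 17.0, and 17.1 CPM in controls, 14.1, 13.7, and 14.0 CPM in p53mut mice, and 12.4, 14.2, and 13.5 CPM in NrasG12D mice. In NPmut mice it read 11.3, 15.3, 9.97, and 11.8 CPM. The 3 control mice were above all others, and the 3 mutant groups overlapped in part. Against controls the log2 difference in NPmut mice was −0.51 ± 0.15 (SE), or 0.703-fold (95% interval 0.564 to 0.876), with an adjusted p of 0.0407. The call was near the threshold and was lost without control mouse 1, 2, or 3, p53mut mouse 1 or 2, NrasG12D mouse 2 or 3, or NPmut mouse 1, 3, or 4, with adjusted p values of 0.0521 to 0.129. It was also lost in edgeR with the compared groups alone (adjusted p = 0.138) and with no filter on low counts (adjusted p = 0.187).

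Ccnb2, the second B-type cyclin, did not pass the test, with a log2 fold change of 0.04 (−0.24 to 0.32). The ratio of Ccnb1 to Ccnb2 in CPM was 0.246 ± 0.0240 (SD, n = 3) in controls, 0.214 ± 0.00983 in p53mut mice, 0.211 ± 0.0205 in NrasG12D mice, and 0.167 ± 0.00973 (n = 4) in NPmut mice. The 4 NPmut ratios lay between 0.157 and 0.180, below the lowest ratio of any other mouse, 0.190. This ratio was formed after the values were seen and is given without a test.

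**Figure D3:**
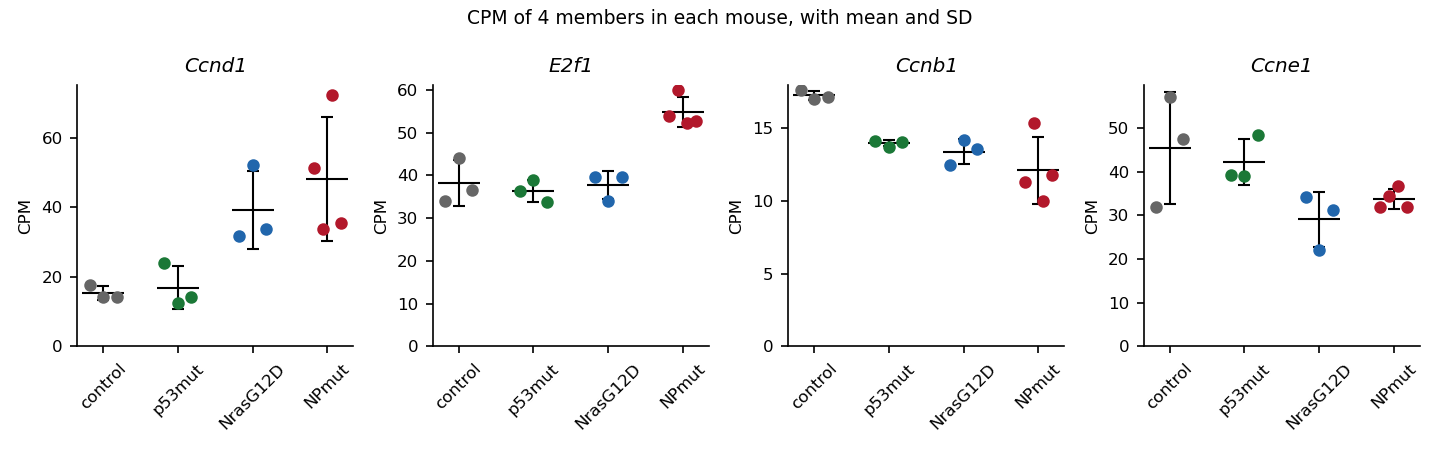
Points are the CPM of single mice for Ccnd1, E2f1, Ccnb1, and Ccne1, and bars give the mean and SD of the 3 or 4 mice of each group. NPmut mice are apart from control mice for Ccnd1, E2f1, and Ccnb1 and overlap them for Ccne1.

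No mitotic kinase passed the test, and their log2 fold changes lay on both sides of 0. Cdk1, the mitotic kinase itself, had a log2 fold change of 0.00 (−0.29 to 0.30), and Ccna2, its cyclin partner before mitosis, one of −0.04. Plk1, which drives mitotic entry and exit, had one of −0.36 (−0.68 to −0.05, adjusted p = 0.137). Aurka, the centrosomal Aurora kinase, had one of 0.04, and Aurkb, the Aurora kinase of the chromosomal passenger complex, one of 0.30 (0.01 to 0.58, adjusted p = 0.178). Aurkb was higher in 4 of 4 NPmut mice than in any control mouse, at 72.7, 105, 75.0, and 80.8 CPM against 72.0, 69.5, and 62.4 CPM, without passing the test.

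The checkpoint kinases Bub1 and Bub1b, the APC/C activator Cdc20, the spindle motor Kif11, and the passenger protein Birc5 had log2 fold changes of −0.15, −0.02, −0.22, −0.07, and 0.15. Foxm1, the factor that drives many G2/M genes, had one of 0.20 (−0.06 to 0.46). Top2a, which untangles sister chromatids, had one of −0.08 (−0.31 to 0.16). The kinetochore genes Cenpe and Cenpf and the proliferation marker Mki67 had log2 fold changes of −0.19, −0.28, and −0.24, with bounds between −0.69 and 0.20. Without NPmut mouse 4, Cenpe stood at −0.44 (adjusted p = 0.0393) and Cenpf at −0.50 (adjusted p = 0.0476), both past the threshold.

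Cenpe, Cenpf, and Mki67 varied widely inside the NPmut group. Mki67 read 2078, 1248, 1971, and 2734 CPM in NPmut mice 1 to 4, against 2294 to 2467 CPM in controls. Cenpf read 229, 145, 216, and 326 CPM, against 262 to 289 CPM. Mouse 2 was the lowest and mouse 4 the highest of all 4 for both genes. The median SD of log2 CPM over the 17 G2/M genes was 0.27 in NPmut mice and 0.11 in controls, and over all genes tested it was 0.35 and 0.20.

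The deviations of NPmut mouse 2 moved with transcript length. The 9 members with at least 8000 exonic bases (Cenpf, Cdk6, Rrm1, Mki67, Ccnd2, Top2a, Pola1, Ccnd3, and Cenpe) had a median deviation from controls of −0.53 in this mouse, and the other 33 members one of 0.31. In the other 12 mice the medians of the long members lay between −0.17 and 0.10 and those of the others between −0.11 and 0.09. Over all genes tested, genes with transcripts of up to 1600 bases had a median deviation of 0.49 in NPmut mouse 2 and genes with at least 5897 bases one of −0.37, a difference of −0.86, against −0.17 to 0.08 in the other mice. Spearman's rho between length and deviation across the 42 members, which share the library, was −0.59 in this mouse, −0.42 in control mouse 2, and between −0.14 and 0.28 in the others. When the length trend of each library was taken out by an offset, chosen after this was seen, the 3 called members were the same. Without NPmut mouse 2, 5 members were called, Plk1 and Cdc20 being lower besides.

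**Figure D4:**
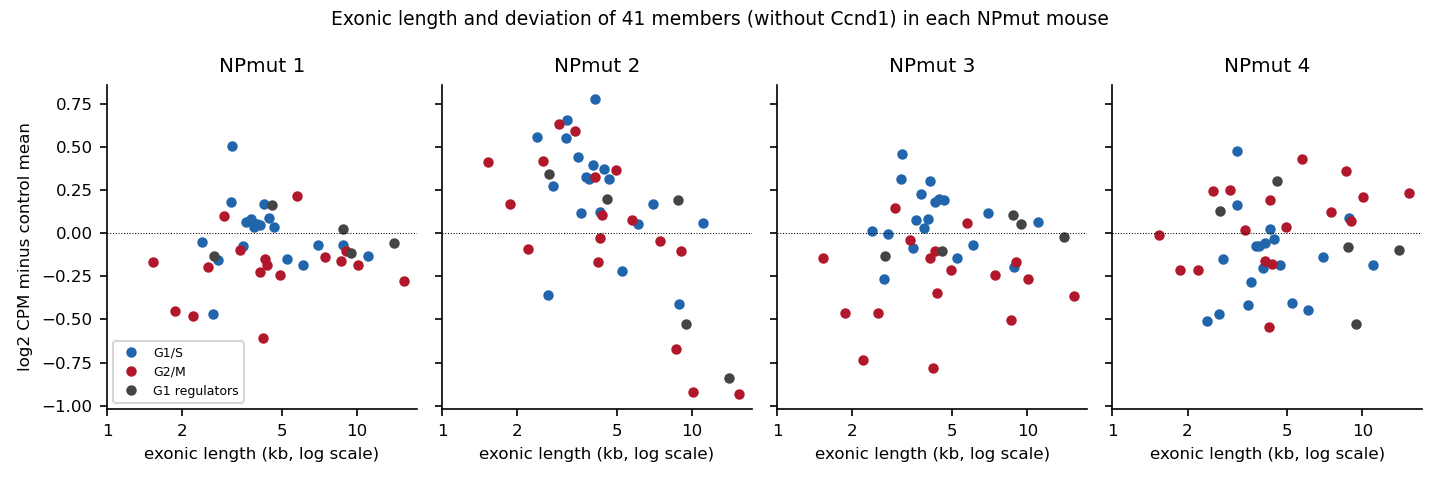
Each panel plots, for 1 NPmut mouse, the exonic length of 41 members in kb on a log axis against their log2 CPM minus the control mean, with G1/S genes in blue, G2/M genes in red, and G1 regulators in grey, leaving out Ccnd1. Points fall with length in mouse 2, where the 9 longest members have a median of −0.53, and show no such slope in mouse 4, where that median is 0.07.

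Among the G1 regulators, Ccnd1, cyclin D1, had the largest change of any member. It read 17.6, 14.1, and 14.1 CPM in controls, 23.9, 12.4, and 14.3 CPM in p53mut mice, and 31.8, 52.1, and 33.8 CPM in NrasG12D mice. In NPmut mice it read 51.2, 33.7, 72.2, and 35.5 CPM. All 7 mice with mutant Nras were above all 6 mice without it, and the NrasG12D and NPmut ranges overlapped. The log2 fold change in NPmut mice was 1.66 ± 0.30 (SE), or 3.15-fold (95% interval 2.03 to 4.90), with an adjusted p of 0.00352, and the call held in 13 of 13 fits that left out 1 mouse. In NrasG12D mice it was 1.36 ± 0.31, or 2.57-fold (1.62 to 4.06), with an adjusted p of 0.157. Between NPmut and NrasG12D mice the log2 difference was 0.30 (−0.31 to 0.90). Ccnd1 shares 1100 exonic bases with LTO1 on the opposite strand, whose own log2 fold change in NPmut mice was −0.07 (adjusted p = 0.812).

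The other D cyclins were more abundant than Ccnd1 in control cells. On the RPKM scale, which allows genes to be compared per length, Ccnd2 made up 66.8 ± 2.47% (SD, n = 3) of the summed D cyclins in controls, Ccnd3 24.2 ± 1.76%, and Ccnd1 8.98 ± 0.724%. The Ccnd1 share was 9.85 ± 2.86% in p53mut mice, 19.7 ± 3.63% in NrasG12D mice, and 25.3 ± 4.19% (n = 4) in NPmut mice. The Ccnd2 share was 64.0 ± 1.81%, 58.7 ± 3.48%, and 51.0 ± 1.53% in the same order, and the Ccnd3 share was 26.1 ± 1.43%, 21.6 ± 1.22%, and 23.7 ± 4.68%. The Ccnd1 share was above that of Ccnd3 in NPmut mice 1 and 3 and in NrasG12D mouse 2, and the shares of the pair overlapped in NPmut mice. Ccnd2 itself had a log2 fold change of −0.26 in NPmut mice (−0.54 to 0.03, adjusted p = 0.244), and Ccnd3 one of 0.05 (−0.18 to 0.29).

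Cdk6, the kinase partner of D cyclins in blood progenitors, read 1074, 1099, and 1098 CPM in controls and 1045, 609, 1072, and 1019 CPM in NPmut mice. All NPmut values were below all control values, by little in 3 mice and by much in mouse 2, and the log2 fold change was −0.22 (−0.55 to 0.12, adjusted p = 0.415). The CDK inhibitors Cdkn1b (p27) and Cdkn2c (p18) had log2 fold changes of 0.14 (−0.10 to 0.39) and 0.07 (−0.29 to 0.42). In NrasG12D mice Cdkn1b had one of 0.35 (0.09 to 0.61, adjusted p = 0.375), with 3 of 3 mice above all controls.

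G1/S and G2/M genes were then set against each other, which no library scaling can move. A length trend such as that of NPmut mouse 2 can move it. The long members include Cenpf, Mki67, Top2a, and Cenpe among G2/M genes, and Rrm1 and Pola1 among G1/S genes. In NPmut mice the median log2 fold change was 0.05 for the 19 G1/S genes, of which 13 were positive, and −0.07 for the 17 G2/M genes, of which 6 were positive, a difference of 0.12. Leaving out 1 mouse gave a difference of 0.08 (without NPmut mouse 2) to 0.26 (without NPmut mouse 4). With the spread pooled over all groups, the intervals of G1/S genes ran from −0.82 to 0.77 at their furthest. Those of G2/M genes ran from −0.83 to 0.58, and the intervals of all 36 genes lay within 2-fold. Per mouse, the mean log2 CPM of G1/S genes minus that of G2/M genes, relative to controls, was 0.19, 0.23, 0.36, and −0.20 in NPmut mice 1 to 4. NPmut mice 1, 2, and 3 were above all controls (−0.08, 0.06, and 0.02), and NPmut mouse 4 was below them. The mean of 0.15 ± 0.24 (SD, n = 4) was smaller than the spread between the mice, and no direction was shared by the group.

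**Figure D5:**
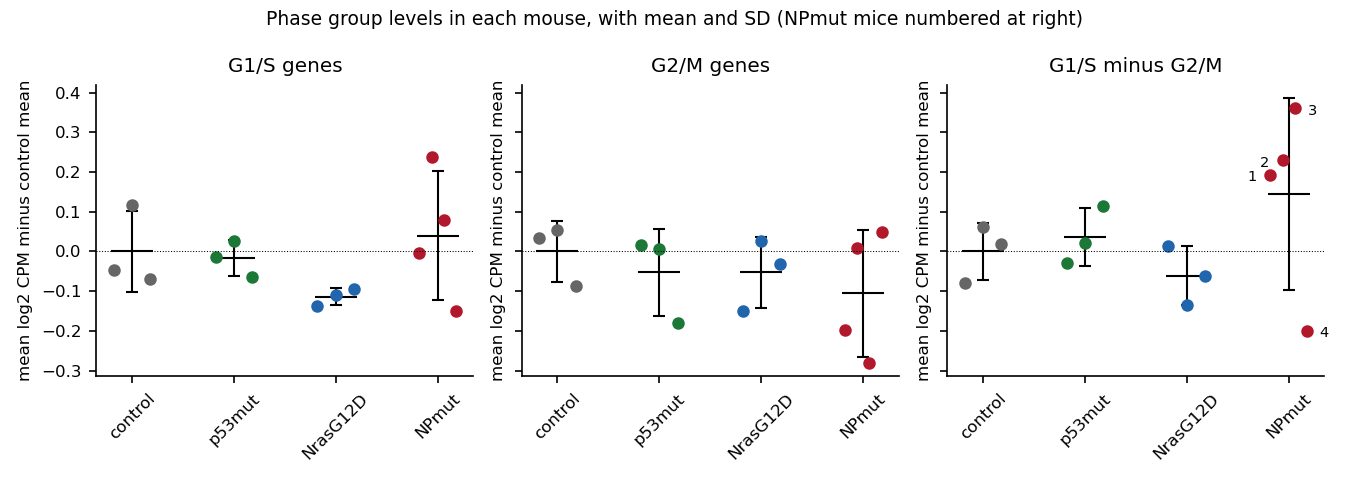
Points give, for each mouse, the mean log2 CPM over the 19 G1/S genes, over the 17 G2/M genes, and their difference, each minus the control mean, and bars give the group mean and SD. NPmut mice spread widely in all 3 panels, and in the difference mouse 4 (−0.20) is on the other side of 0 from mice 1 to 3 (0.19 to 0.36).

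NrasG12D mice were compared with controls for the effect of the Nras allele alone. By edgeR 0 of 42 members were called, against 0.00562% of all genes, and DESeq2 called 1, Ccnd1. At an unadjusted p under 0.05 there were 5 members (11.9%), against 9.23% of all genes. The interval lay within 2-fold for 40 of 42 members, against 61% of all genes tested and 95.2% of the genes at member levels, the exceptions being Ccnd1 and Ccne1. The G1/S median was −0.09, with 4 of 19 genes positive, and the G2/M median −0.08, with 8 of 17 positive. Per mouse, the mean G1/S level was −0.14, −0.11, and −0.09 relative to controls, below the 3 control values of −0.05, 0.12, and −0.07. The largest of these differences after Ccne1 was that of Rrm2, at 97.0, 92.3, and 104 CPM against 115, 131, and 123 CPM in controls, with a log2 fold change of −0.33 (−0.62 to −0.04, adjusted p = 0.467). Values did not overlap with controls for 8 of 42 members (19%), near the 21.1% of all genes.

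p53mut mice were compared with controls for the effect of the p53 allele alone. Neither edgeR nor DESeq2 called any member, and 0% of all genes passed in edgeR. An unadjusted p under 0.05 was reached by 0 of 42 members, against 2.33% of all genes. The interval lay within 2-fold for 42 of 42 members and within 1.5-fold for 40, against 63.4% and 43% of all genes tested and 97.1% and 83% of the genes at member levels. The medians were −0.01 for G1/S and −0.02 for G2/M genes. Ccnb1 was the member furthest from 0, with a log2 fold change of −0.31 (−0.65 to 0.04).

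NPmut mice were also compared with each single mutant. Against NrasG12D mice 1 member was called, E2f1, with a log2 fold change of 0.53 (0.29 to 0.78, adjusted p = 0.0107), where 8.88% of all genes were called, and without NrasG12D mouse 2 its adjusted p was 0.0647. Against p53mut mice E2f1 at 0.59 (0.34 to 0.84, adjusted p = 0.00546) and Ccnd1 at 1.52 (0.88 to 2.15, adjusted p = 0.00587) were called, where 9.95% of all genes were. The interaction, the NPmut value minus both single mutants plus the control on the log2 scale, was called for 0 of 42 members by edgeR, against 1.74% of all genes, and 3 members (7.14%) had an unadjusted p under 0.05, against 16.1% of all genes. E2f1 had the largest interaction, at 0.61 (0.25 to 0.97, adjusted p = 0.0825), which DESeq2 called. For Ccnd1 it was 0.16 (−0.74 to 1.05), an interval that reached past 2-fold on the upper side.

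The wider pathway was read from 3 lists without the members. Of 50 further replication and repair genes tested, 2 were called in NPmut mice against controls, both higher, and the median was 0.07. That is 4%, as it was for both other lists, below the 10.9% of all genes called. Tk1, the S-phase thymidine kinase, read 49.4, 56.8, and 64.3 CPM in controls and 81.2, 94.5, 74.9, and 74.0 CPM in NPmut mice, without overlap. Its log2 fold change was 0.51 (0.26 to 0.77, adjusted p = 0.0141). Ung, the uracil glycosylase, rose by a log2 fold change of 0.44 (adjusted p = 0.0369).

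Of 50 further mitosis genes tested, 1 was higher and 1 lower, with a median of −0.06. Racgap1, a regulator of cytokinesis, was higher by 0.54 on the log2 scale (adjusted p = 0.0243), with 101 to 145 CPM in NPmut mice against 79.6 to 83.9 CPM in controls. Hmmr, a spindle and hyaluronan-binding protein, had one of −0.47 (adjusted p = 0.0293), with 65.9 to 97.0 CPM against 112 to 122 CPM. Of 25 tested genes for CDKs, inhibitors, and the E2F and RB family, 1 was called. Cdkn1a (p21), a CDK inhibitor and p53 target, read 4.54, 3.40, and 3.01 CPM in controls and 14.8, 10.2, 5.31, and 13.1 CPM in NPmut mice, all higher, with a log2 fold change of 1.57 (0.76 to 2.37, adjusted p = 0.0161). The INK4 inhibitors Cdkn2a and Cdkn2b had at most 5 and 3 counts in any mouse and were not tested. These 5 calls were each lost in some fits: with the compared groups alone the adjusted p was 0.0625 for Tk1, 0.119 for Ung, 0.0544 for Racgap1, and 0.102 for Hmmr, and without control mouse 3 it was 0.0822 for Cdkn1a.

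In level per length, Mki67 was the most abundant member in controls at 244 RPKM, followed by Mcm3 (153 RPKM), Mcm6 (129 RPKM), and Top2a (105 RPKM). Ccnb1 (4.23 RPKM) and Ccnd1 (3.36 RPKM) were the least abundant of the 42, so 2 of the 3 members that changed in NPmut mice were the 2 with the lowest levels in control cells.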

How the data were processed

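Lin- cKit+ BM cells of 3 control, 3 p53mut, 3 NrasG12D, and 4 NPmut mice were profiled by RNA-Seq, 1 library per mouse. The authors deposited raw counts per gene for 54838 Ensembl identifiers, and no normalized values were used. The libraries were made with a stranded total RNA kit, and the submitters' processing notes list STAR 2.6.1d, R 3.6.1, DESeq2 1.26.0, and the build GRCm38.p6, without their roles. The counting program, its strand setting, and its annotation are not given in the sources used here. Columns were matched to mice by the mouse code in the sample titles. Names, exonic lengths, and coordinates came from GENCODE M21, which held 54809 of the identifiers (29, with 0.00320% of the counts, were not in it). The table has 0 rows without a gene name.

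Counts were fitted in R 4.3.3 with edgeR 4.0.16, in 1 robust quasi-likelihood model with a mean for each group over all 13 libraries, TMM factors, and filterByExpr. The Benjamini-Hochberg adjustment ran over the 17795 genes tested, and a gene was called at an adjusted p under 0.05. SE is the absolute log2 fold change over the square root of F, and 95% intervals use the t distribution. Intervals are for single genes. CPM are TMM-scaled, log2 CPM use a prior count of 2, and RPKM use library totals and exonic length. P-values measure the spread between mice, each labeled as a separate sample. That spread is pooled over the 4 groups, so it need not match the spread of NPmut mice. Their median SD of log2 CPM over all genes tested was 0.35, against 0.20 to 0.22 in the other groups. The script was tested on simulated counts. The genes and lists were chosen with earlier results of these data known. Named are members called in any comparison, the 4 largest changes in NPmut mice, the narrowest and widest intervals, and up to 4 called genes per wider list. Other members are given for their role, and the Ccnb1 to Ccnb2 ratio was chosen after the values were seen.

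Deviations of same-numbered control and p53mut mice correlated at 0.15 to 0.17 in 3 of 3 pairs, and other group pairs did not all exceed 0.1. With the replicate number as a block, the comparison of p53mut with control mice called 0 members, as without it. Alternatives were other scaling factors, filters, DESeq2 1.42.0, the compared groups alone, the replicate block, each mouse left out in turn, and, added after the data were seen, a lowess offset for length.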

Additional observations from a re-analysis of the deposited data

Results flagged for a closer look

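In 4 of 46 measures tested, 1 NPmut mouse stood apart from the other 3, its gap to the nearest mouse taking a share of the group's whole range above 0.829. Chance sets apart about 1 in 20 such groups. For Mcm4 the share was 0.87, with mouse 4 low at 210 CPM against 267 to 277 CPM. For Ccna2 it was 0.845, with mouse 2 high at 206 CPM against 140 to 149 CPM. For Birc5 it was 0.837, with mouse 2 high at 131 CPM against 81.4 to 88.0 CPM. For Cdk6 it was 0.911, with mouse 2 low at 609 CPM against 1019 to 1072 CPM. All measures come from the same 4 mice, so they are not independent. Ccna2, Birc5, and Cdk6 were each set apart by mouse 2, whose deviations moved with transcript length. The part of length in these values was not tested.

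Of the wider pathway, 2 genes differed between the effect of both alleles together and the sum of the single ones, by the interaction term in edgeR. They were 1 of 50 replication genes (2%), 0 of 50 mitosis genes, and 1 of 25 CDK, inhibitor, and E2F/RB genes (4%). The share over all genes tested was 1.74%, so the count is near that of any genes. Tk1 had an interaction of 0.80 on the log2 scale (95% interval 0.42 to 1.17, adjusted p = 0.0376), with 46.6 to 56.6 CPM in NrasG12D mice, 49.1 to 55.1 CPM in p53mut mice, and 74.0 to 94.5 CPM in NPmut mice. Myc, the growth factor-driven transcription factor, had one of −0.77 (−1.10 to −0.44, adjusted p = 0.0247), with 378 to 414 CPM in controls, 429 to 471 CPM in p53mut mice, 494 to 559 CPM in NrasG12D mice, and 311 to 400 CPM in NPmut mice. Both calls were lost in many of the 13 fits that left out 1 mouse, holding in 5 for Tk1 and 4 for Myc, with adjusted p values of up to 0.120 and 0.101.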

How the results depend on the processing

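Over the alternatives, 759 values that answer a comparison were counted as unchanged. A count of members was unchanged within 1.5-fold, and a median or level within the pooled SD between mice, so its sign could differ. Called members rose in number beyond this limit in 10 cases and fell in 2. In 3 cases a median or level moved by more than that SD. For NPmut against control mice, 3 members were called. The replicate block over all 13 libraries called 8, with 2761 of all genes called against 1944 without it. The numbers do not pair these groups, and number 4 occurs in NPmut mice alone, so the block takes NPmut mouse 4 out of the comparison. Leaving out 1 mouse gave 1 (without control mouse 3, with 813 genes called) to 5 (without NPmut mouse 2). Without NPmut mouse 2 the G1/S median turned from 0.05 to −0.03. Against NrasG12D mice the block called 4, no filter called 2, and leaving out 1 mouse gave 0 (without NrasG12D mouse 2) to 3 (without NPmut mouse 4). Against p53mut mice the block called 4. The block changed no other count. For NrasG12D against control mice no filter called 2, and DESeq2 and the compared groups alone called 1 each. For the interaction DESeq2 called 1. With library totals and no scaling factor the median of all genes in NPmut mice moved from 0.01 to −0.11, the G1/S median to −0.075, the G2/M median to −0.20, and the mean G1/S level to −0.079. The cause was not tested. Ccnd1 was called in NPmut mice in 21 of 21 alternatives, E2f1 in 20, and Ccnb1 in 9. Without 1 mouse the call was lost for Tk1 (control 1 or 2, adjusted p up to 0.0682), Racgap1 (any control, up to 0.0953), Cdkn1a (control 2 or 3, up to 0.0822), Hmmr (any control, NPmut 1 or 3, up to 0.121), and Ung (any control, p53mut 2, NrasG12D 3, NPmut 2 or 3, up to 0.147). With library totals Tk1 (0.0506) and Ung (0.117) were also lost. A fit without NPmut mice 2 and 4 together was also run and is not reported, because mouse 4 had been picked for its own G1/S to G2/M difference. The fewest counts of any member in a mouse were 139, so counting error was small beside the intervals given.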

Other observations

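Against NrasG12D mice, 3 of 50 genes of the wider replication list (6%) were called in NPmut mice by edgeR, all higher. Of all genes tested 8.88% were called, so this share is not above that of any genes. Beside Tk1, with a log2 fold change of 0.67, they were Tipin, a fork protection factor, at 0.63 (95% interval 0.31 to 0.95, adjusted p = 0.0167) and Nasp, a histone chaperone, at 0.39 (0.16 to 0.61, adjusted p = 0.0338). Myc at −0.57 (adjusted p = 0.00428) and Rbl2, the RB family member p130, at −0.35 (adjusted p = 0.0186) were lower. Values of NPmut and NrasG12D mice did not overlap for any of the 5 genes, where 20.5% of all genes tested did not overlap. The 5 had been called on these same values, so the lack of overlap adds no support. Myc and Rbl2 were the 2 of 25 tested CDK, inhibitor, and E2F/RB genes called (8%), near the share of all genes. Against p53mut mice E2f2, a second activating E2F factor, was higher at 0.64 (adjusted p = 0.0468), and so were Tk1 at 0.64, Ung at 0.46 (adjusted p = 0.0322), and Cdkn1a at 1.57, whereas Myc was lower at −0.39 (adjusted p = 0.0305). These were 2 of 50 replication genes (4%) and 3 of 25 CDK, inhibitor, and E2F/RB genes (12%), where 9.95% of all genes were called. Cdkn1a values overlapped between p53mut and NPmut mice, with 5.83 CPM in p53mut mouse 1 and 5.31 CPM in NPmut mouse 3.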
